A study of Homo sapiens with 7 samples.

Results

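The genes described here encode the nuclear share of the mitochondrial respiratory chain and of ATP synthase, measured by RNA-seq in HEK293, a human cell line derived from embryonic kidney. They were taken from the authors' gene table by symbol: names that begin with NDUFA, NDUFB, NDUFC, NDUFS, NDUFV, UQCR, COX4 to COX8 or ATP5, together with SDHA, SDHB, SDHC and SDHD, with a locus on chromosomes 1 to 22 or X. That left 101 of the 63655 genes of the table after 129 symbols of pseudogenes were dropped. Of these, 84 encode subunits or isoforms of subunits, 9 are assembly factors or related proteins that share the names, and 8 are antisense, readthrough or second entries. The study lowered CNBP, which binds G-rich RNA and DNA through zinc fingers, and the labels describe 4 CNBP knockdown and 3 control knockdown samples, all in HEK293 cells that carry FLAG-HA tagged CNBP. The knockdown samples carry a pair of numbers each, which nests them as 2 sets of 2, and the labels do not say what the sets are. The labels give no siRNA sequence, dose or time, and they do not say whether the samples were separate cultures.

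The table gives 1 level per gene for each of 2 conditions, headed siRNA and OE, as FPKM, which is fragments scaled to transcript length and to the mapped total. Which samples entered which condition is not stated, and OE is not explained, so the column names are kept; siRNA was taken to be CNBP knockdown. If OE cells made extra CNBP, a difference between the columns would hold both manipulations. CNBP itself was at 45.5 FPKM in siRNA and 579.8 FPKM in OE, 12.7-fold lower. With no level per sample, no value below has an SD or n, depth per sample is unknown, and the spread between samples enters only through the p and q of the authors' deposited table. A gene counts as called where its status is OK and that q is under 0.05. In bulk RNA, less transcript in every cell and fewer cells with the transcript cannot be told apart.

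The respiratory chain passes electrons from NADH, at complex I, and from succinate, at complex II, through coenzyme Q to complex III, then by cytochrome c to complex IV, which reduces oxygen. Complexes I, III and IV pump protons, and ATP synthase, also called complex V, uses the proton gradient to make ATP. The mitochondrial genome encodes a few central subunits, and all of complex II and the great majority of the other subunits come from nuclear genes. Several complex IV subunits exist as a common form and as a form restricted to heart and muscle, testis, lung or hypoxic cells.

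No common subunit of any complex was called in siRNA against OE. Of 95 members that the authors tested, 0 were called higher and 1 was called lower, COX6B2, a testis form of a complex IV subunit. Among all 24822 tested genes 0.572% were called higher and 0.782% lower, so the members' count is near the background. The 75 common subunit forms ranged from 23.6 to 975 FPKM in siRNA and from 27.8 to 976 FPKM in OE, with medians of 117 and 108 FPKM. Of these 75, 49 had a higher value in siRNA and 26 a lower one, with a median change of 0.12 on the log2(FPKM + 1) scale, which is used for every change below unless a fold is given. The change was under 0.5 in either direction in 71 of the 75. All 75 averaged over 10 FPKM and 65.3% of them were higher; over the 8078 tested coding genes averaging 10 FPKM or more, 61.1% were higher in siRNA and the median change was 0.09. Over all 95 tested members 55 were higher and the median change was 0.05; scaled by the upper quartile of the columns, which lowers changes by about 0.06, that median was -0.01.

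**Figure D1:**
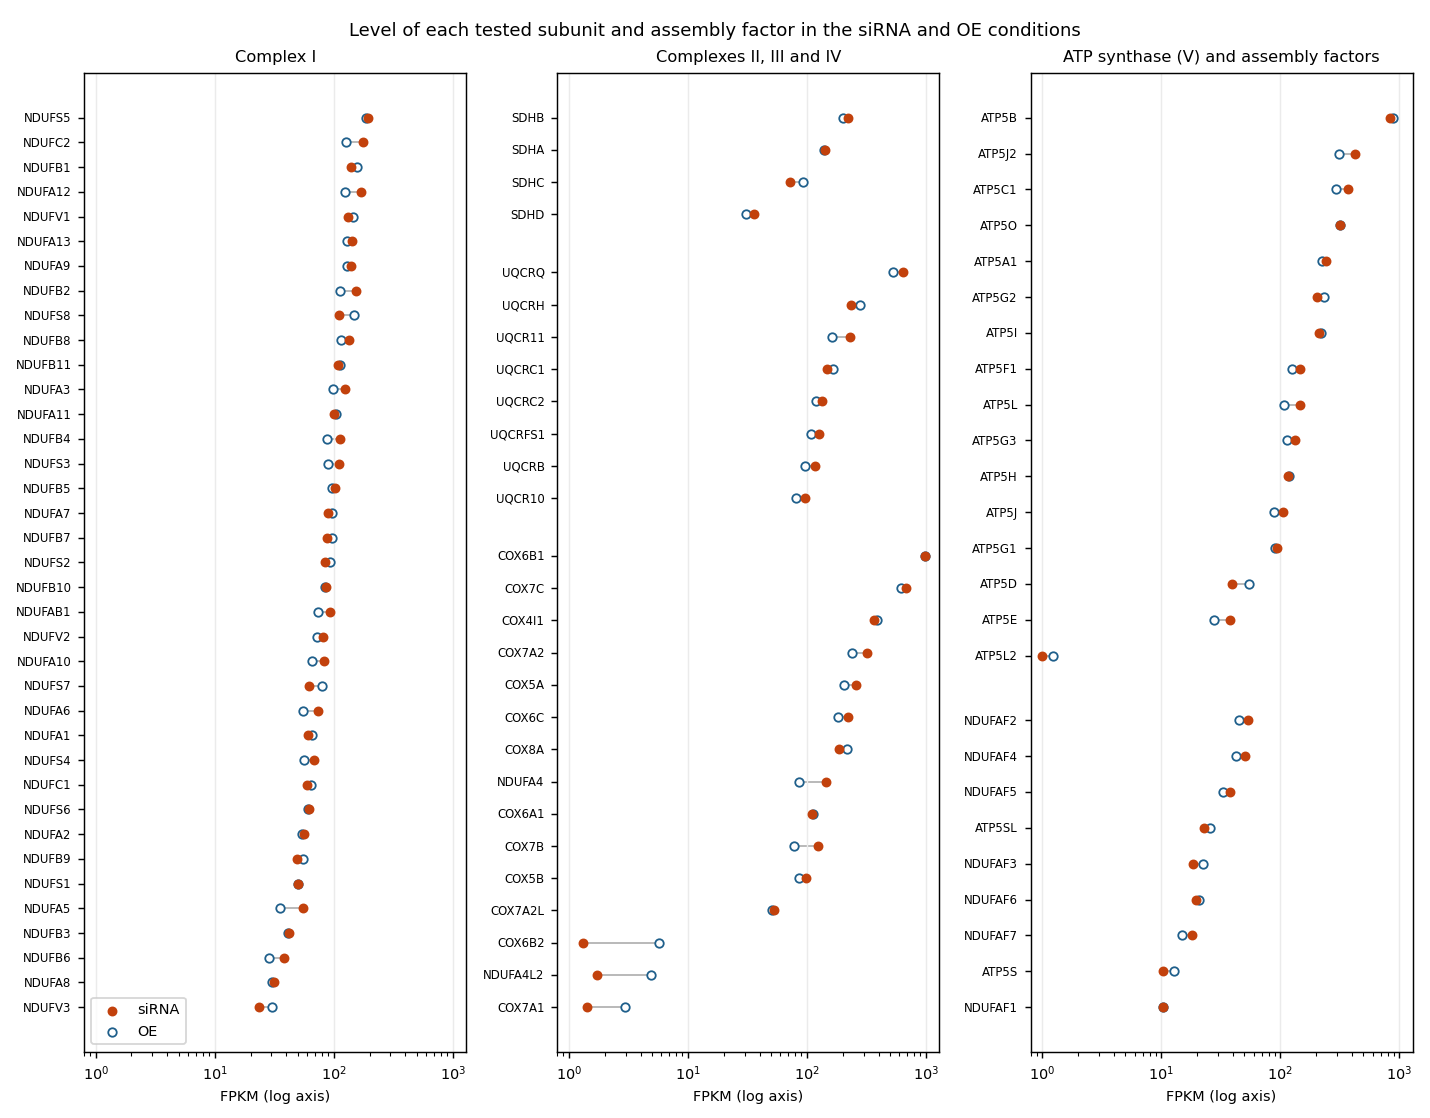
FPKM (log axis) of each tested subunit and assembly factor in the siRNA (filled) and OE (open) conditions, 1 pooled value per condition, ordered by mean level within a complex. The pairs lie close together except for low-level forms such as COX6B2, at 1.32 FPKM in siRNA and 5.69 FPKM in OE.

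Before adjustment, 6 members had p under 0.05 in the authors' deposited table with a higher value in siRNA, and 2 with a lower value. That is 6.32% and 2.11% of the 95 tested, against 4.51% and 6.41% of all tested genes. All of these but COX6B2 averaged 10 FPKM or more, where 6.98% of 86 members were higher and 1.16% lower; among the 8078 tested coding genes of that level the shares were 8.22% and 4.21%. The 6 higher members were NDUFA4, COX7B, NDUFA5, NDUFC2, NDUFA12 and COX7A2, and the lower ones COX6B2 and ATP5D. None but COX6B2 passed the adjustment over the whole table.

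**Figure D2:**
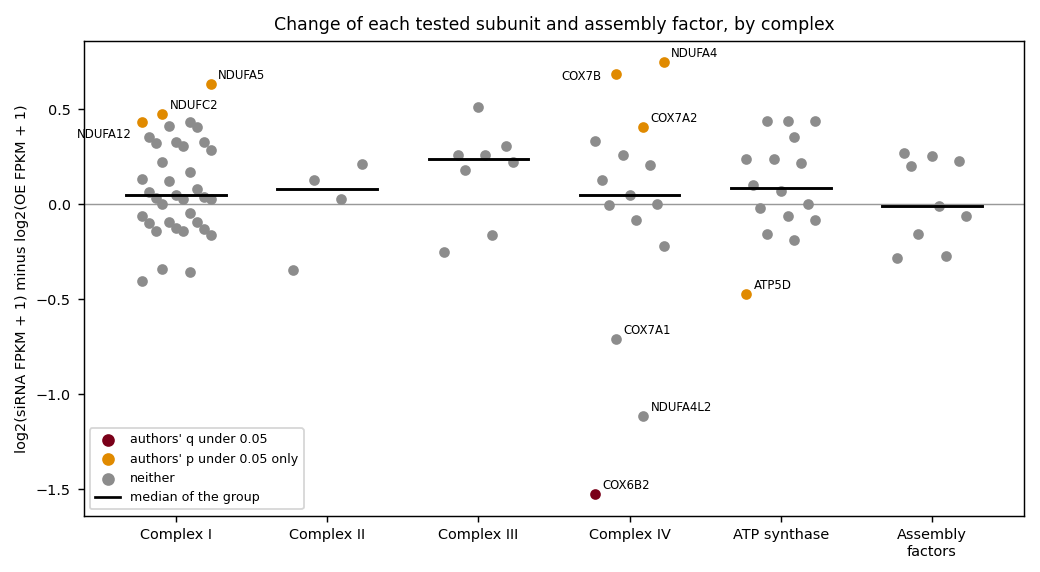
Difference of log2(FPKM + 1), siRNA minus OE, of each tested subunit and assembly factor, by complex, with the median of each group as a line. COX6B2, at -1.53, is the only called gene, and COX6B2, NDUFA4L2 and COX7A1 of complex IV lie below all others.

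COX6B2 encodes the testis form of subunit 6B, which sits on the intermembrane face of complex IV. It was at 1.32 FPKM in siRNA and 5.69 FPKM in OE, 4.30-fold lower. The authors' deposited table gives it q = 0.00791, which is also the lowest value in that column. Its locus entry (ENSG00000160471, chromosome 19, 55860674 to 55874628, hg19) is shared with FAM71E2 and CTD-2105E13.6, which were at or under 0.0359 FPKM in both conditions. COX6B1, the form used in most tissues, was at 975 FPKM in siRNA and 976 FPKM in OE. The testis form thus made up 0.136% of the summed COX6B level in siRNA and 0.580% in OE. The coding sequences of both forms align with 64.6% identical bases, counting gaps as differences.

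The promoters of the pair, from RefSeq on GRCh38.p14, are shown because the called gene and its common partner differ in base content there. Each runs from 250 bases before to 50 bases after an annotated transcript start. The COX6B2 promoter (chr19:55354670-55354969, minus strand) has 72.0% G and C and 31 CpG dinucleotides, and the COX6B1 promoter (chr19:35648073-35648372, plus strand) has 56.7% and 16. Capitals mark CCGGAA, the core bound by ETS factors, on either strand, found in COX6B1 and not in COX6B2.
COX6B2: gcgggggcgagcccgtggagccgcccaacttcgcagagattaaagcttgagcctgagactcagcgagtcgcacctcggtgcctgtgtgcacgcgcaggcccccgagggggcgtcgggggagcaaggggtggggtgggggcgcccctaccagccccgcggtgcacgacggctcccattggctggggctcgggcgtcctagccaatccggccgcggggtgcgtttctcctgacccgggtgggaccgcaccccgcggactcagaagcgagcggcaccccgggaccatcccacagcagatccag
COX6B1: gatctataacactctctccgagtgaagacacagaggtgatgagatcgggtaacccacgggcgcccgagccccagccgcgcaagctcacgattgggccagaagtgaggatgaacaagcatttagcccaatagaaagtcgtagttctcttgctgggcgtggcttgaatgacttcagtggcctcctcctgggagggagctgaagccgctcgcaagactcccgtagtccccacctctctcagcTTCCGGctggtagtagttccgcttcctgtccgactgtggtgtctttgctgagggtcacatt

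Among the 11 common complex IV subunits, 7 had a higher value in siRNA, and the median change was 0.20. NDUFA4, named for complex I but now counted with cytochrome c oxidase, was at 144 FPKM in siRNA and 85.7 FPKM in OE (chromosome 7, 10971578 to 10979883, hg19), 1.68-fold higher, with q = 0.138 in the authors' deposited table. COX7B, a small membrane subunit (chromosome X, 77154935 to 77162870), was at 125 FPKM in siRNA and 77.3 FPKM in OE, 1.61-fold higher, with q = 0.182 there. COX7A2, the common form of subunit 7A, was at 320.3 FPKM in siRNA and 242 FPKM in OE, with q = 0.405 there. These were the largest of the complex IV differences upward, and none was called. COX8A was at 185 FPKM in siRNA and 215 FPKM in OE, and COX4I1, the common form of subunit 4, at 368 and 389.6 FPKM. They had the largest differences downward among the common subunits, and neither was called. COX7C, the most abundant after COX6B1, was at 676 FPKM in siRNA and 619.7 FPKM in OE. COX5A, COX5B, COX6A1 and COX6C were at 257, 98.2, 111 and 221 FPKM in siRNA, against 203, 85.2, 112 and 184 FPKM in OE.

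Forms known from other tissues were low in both conditions. NDUFA4L2, a hypoxia-induced relative of NDUFA4, was at 1.74 FPKM in siRNA and 4.93 FPKM in OE, and the authors' deposited table gave p = 0.469 for that 2.84-fold difference. Its locus entry also holds SHMT2, a serine metabolism gene, and how reads were divided there could not be checked. COX7A1, the heart and muscle form of 7A, was at 1.42 FPKM in siRNA and 2.97 FPKM in OE, without a call. It made up 0.442% of the summed COX7A level in siRNA and 1.21% in OE. COX4I2, COX6A2, COX7B2 and COX8C were not tested. COX8C was at 0.292 FPKM in siRNA and 0.526 FPKM in OE, COX7B2 at 0.0700 and 0.0661, COX4I2 at 0.0117 and 0.0558, and COX6A2 at 0.0774 FPKM in siRNA while listed at 0 in OE. COX7A2L, a relative of COX7A2 that joins complexes III and IV in supercomplexes, was expressed at 52.6 FPKM in siRNA and 50.9 FPKM in OE.

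**Figure D3:**
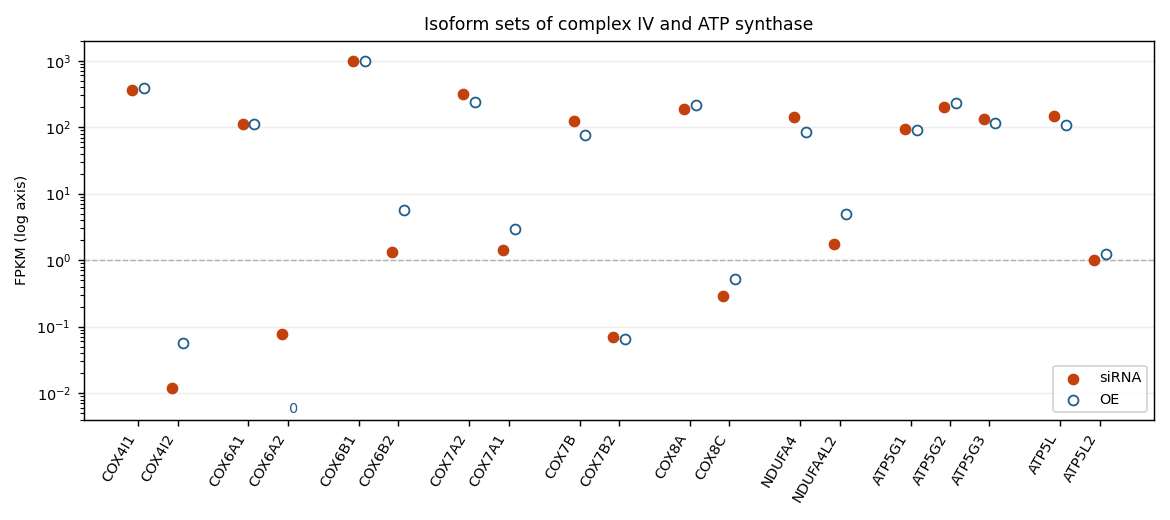
FPKM (log axis) of the isoform sets of complex IV and ATP synthase in the siRNA (filled) and OE (open) conditions, with a dashed line at 1 FPKM and a 0 where the table lists 0. COX6B2, COX7A1 and NDUFA4L2 lie lower in siRNA than in OE, while COX6B1 is at 975 and 976 FPKM.

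Complex I has the most nuclear genes, and its 37 subunits lay between 23.6 and 195 FPKM in siRNA and between 28.5 and 187 FPKM in OE. Of these, 24 had a higher value in siRNA and 13 a lower one, the median change was 0.05, and none was called. Most of the 7 core subunits that come from the nucleus carry the flavin or iron-sulfur clusters or line the quinone site. The median change of all 7 was -0.13, with 3 higher and 4 lower, while that of the 30 accessory subunits was 0.07, with 21 higher. The core transcripts also had the higher GC content, with a median of 54.4% against 48.3% in the accessory ones, and the part of base content in this difference was not tested. NDUFS8 and NDUFS7, iron-sulfur subunits next to the quinone site, had the largest differences downward. NDUFS8 was at 112 FPKM in siRNA and 148 FPKM in OE, with p = 0.0618 in the authors' deposited table, and NDUFS7 at 62.5 and 80.4 FPKM, with p = 0.107 there.

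Median changes of the 3 modules of complex I lay between 0.01 and 0.06. In the N module, which oxidizes NADH, 6 of 8 genes were higher and the median change was 0.03. NDUFV1, which binds the flavin, was at 132 FPKM in siRNA and 145 FPKM in OE, and NDUFS1, its large iron-sulfur partner, at 49.8 and 49.7 FPKM. NDUFA12 stood at 169 FPKM in siRNA and 125 FPKM in OE, with p = 0.0208 and q = 0.301 in the authors' deposited table. In the Q module, where coenzyme Q is reduced, 4 of 8 genes were higher and the median change was 0.01. Here lay the largest upward difference of the complex, in NDUFA5 (chromosome 7, 123177051 to 123198309, hg19), at 55.5 FPKM in siRNA and 35.5 FPKM in OE, 1.56-fold higher. Its q of 0.104 in the authors' deposited table was the smallest among the common subunits of all complexes. In the membrane arm, which pumps protons, 14 of 21 genes were higher and the median change was 0.06. NDUFS5 was the most abundant, at 195 FPKM in siRNA and 187 FPKM in OE. NDUFC2 was at 175 FPKM in siRNA and 126 FPKM in OE, with p = 0.0211 in the authors' deposited table.

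Complex II, succinate dehydrogenase, also serves the citric acid cycle. None of its subunits was called. Of the catalytic ones, SDHA, which binds the flavin, was at 142 FPKM in siRNA and 140.0 FPKM in OE, and SDHB, which holds the iron-sulfur clusters, at 220.1 and 201 FPKM. The membrane anchors lay on opposite sides of 0 without a call: SDHC was at 72.5 FPKM in siRNA and 92.5 FPKM in OE, and SDHD at 35.7 and 30.6 FPKM.

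Of the 8 nuclear genes of complex III, 6 had a higher value in siRNA and the median change was 0.24, the largest of the complexes. After the median change of coding genes of like GC content was subtracted it was 0.065, below the 0.093 of complex I, so complex III was then not the largest. None was called, and the smallest q in the authors' deposited table was 0.607. UQCRQ, a small subunit and the most abundant of them, was at 648 FPKM in siRNA and 524 FPKM in OE. UQCR11 had the largest difference, 232 FPKM in siRNA and 163 FPKM in OE, 1.43-fold higher. UQCRFS1, the Rieske iron-sulfur protein that takes electrons from coenzyme Q, was at 127 FPKM in siRNA and 109 FPKM in OE. UQCRH, the hinge protein near cytochrome c1, was at 234 FPKM in siRNA and 278 FPKM in OE, and UQCRC1, a core protein, at 147 and 164 FPKM. These were the only lower genes of complex III, and neither was called.

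ATP synthase showed no call either. Of its 15 common subunits 9 had a higher value in siRNA, and the median change was 0.10. In the F1 head, the catalytic beta subunit ATP5B was at 846 FPKM in siRNA and 897 FPKM in OE, and its alpha partner ATP5A1 at 242 and 226 FPKM. Among the rotor subunits of the head, ATP5C1 (gamma) was at 375 FPKM in siRNA and 293 FPKM in OE, and ATP5E (epsilon) at 38.0 and 27.8 FPKM. ATP5D, the delta subunit, went the other way (chromosome 19, 1241749 to 1244824, hg19), at 39.4 FPKM in siRNA and 55.1 FPKM in OE, with p = 0.0141 and q = 0.250 in the authors' deposited table. ATP5D, with 69.6% GC, has the highest transcript GC content of the 75 common subunits.

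The c ring of ATP synthase is made from 3 genes that encode the same mature protein behind different import signals. ATP5G2 was at 203 FPKM in siRNA and 232 FPKM in OE, and ATP5G3 at 135 and 114 FPKM. ATP5G2 supplied 47.0% of the summed c subunit level in siRNA and 53.2% in OE, ATP5G3 31.2% and 26.2%, and ATP5G1 21.8% and 20.6%, with no call for any of the 3. In the stalk, ATP5O was at 318.8 FPKM in siRNA and 319.0 FPKM in OE. ATP5J2, a membrane subunit, was at 427 FPKM in siRNA and 315 FPKM in OE, 1.36-fold higher, with p = 0.413 in the authors' deposited table. Its locus entry holds 11 genes, among them the readthrough ATP5J2-PTCD1 at 1.85 FPKM in siRNA and 3.44 FPKM in OE. ATP5L2, a copy of ATP5L whose coding sequence matches it in 91.3% of aligned bases, was at 0.997 FPKM in siRNA and 1.23 FPKM in OE, against 147 and 108 FPKM for ATP5L. Copies this alike can share reads.

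Assembly factors were lower in level than the subunits, with a median of 19.8 FPKM in siRNA and 22.6 FPKM in OE over the 9 members, and none was called. Of the 7 NDUFAF genes, which help build complex I, 4 had a higher value in siRNA. NDUFAF2 was the most abundant, at 54.1 FPKM in siRNA and 45.3 FPKM in OE. ATP5SL, despite its name a complex I assembly protein, was at 23.1 FPKM in siRNA and 25.9 FPKM in OE, and ATP5S at 10.3 and 12.8 FPKM.

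Of the 8 antisense, readthrough or second entries, 6 were tested and none was called. NDUFA6-AS1 was at 8.54 FPKM in siRNA and 12.3 FPKM in OE. Whether the counting used the strand is not given in the sources used here, so an antisense gene and its partner cannot be told apart. A second NDUFA7 entry was at 3.28 FPKM in siRNA and listed at 0 in OE, beside 90.2 and 96.4 FPKM for the NDUFA7 entry itself. The second UQCR11 entry, at 0.456 FPKM in siRNA and listed at 0 in OE, and the second SDHD entry, at 0.184 and 0.132 FPKM, were untested. A second NDUFB8 entry stood at 2.67 FPKM in siRNA and 3.93 FPKM in OE. NDUFB2-AS1 was at 0.971 FPKM in siRNA and 1.42 FPKM in OE, and the readthrough NDUFC2-KCTD14 at 2.48 and 2.98 FPKM. Of all 101 members, 36 have a locus entry that no other gene shares.

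Genes that work beside the members are given against the same background, 0.572% called higher and 0.782% called lower among all tested genes. Of 5 genes that carry electrons or belong to complexes III and V but fall outside the name rule, CYCS rose, the soluble electron carrier cytochrome c, at 114 FPKM in siRNA and 60.2 FPKM in OE, 1.89-fold, with q = 0.00791 in the authors' deposited table. ATPIF1, the inhibitor that stops ATP synthase from running in reverse, fell to 55.9 FPKM in siRNA, against 103 FPKM in OE, 1.85-fold, and the authors' deposited table gives q = 0.0177. The remaining 3, cytochrome c1 (CYC1) and the small ATP synthase subunits USMG5 and C14orf2, were not called. CYC1 was at 93.4 FPKM in siRNA and 95.1 FPKM in OE. Of 41 further assembly genes 1 fell and 0 rose, and 1 gene is too few to set against that background. It was SDHAF1, which guides iron-sulfur cluster insertion into SDHB, at 14.7 FPKM in siRNA and 27.2 FPKM in OE, 1.85-fold lower, and its q in the authors' deposited table was 0.00791. The level of SDHB itself, given above, differed by 1.09-fold.

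No gene was called among 13 of coenzyme Q synthesis, 14 of mitochondrial transcription and biogenesis, 7 regulators of supercomplexes and hypoxic isoforms or 13 of the citric acid cycle. Median changes were -0.19, 0.21, 0.05 and 0.10 in that order. At an unadjusted p under 0.05 in the authors' deposited table there were 1 higher and 1 lower, 1 and 0, 0 and 0, and 2 and 1. Over all tested genes 4.51% were higher and 6.41% lower at that p. ADCK3 and COQ9 were the most abundant of the coenzyme Q list, at 51.7 and 29.3 FPKM in siRNA and 53.8 and 33.8 FPKM in OE. TFAM, which packages mitochondrial DNA, was at 90.9 FPKM in siRNA and 51.9 FPKM in OE, with q = 0.186 in the authors' deposited table. YY1, a transcription factor, followed at 79.4 and 58.4 FPKM. CHCHD2, from the supercomplex and hypoxia list, which also holds COX7A2L, was at 148 FPKM in siRNA and 139.5 FPKM in OE and LONP1, a matrix protease, at 77.7 and 113 FPKM. Citrate synthase (CS) was at 178 FPKM in siRNA and 151 FPKM in OE, and MDH2, malate dehydrogenase, at 156 and 163 FPKM.

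The nuclear subunits can be set beside those that the mitochondrial genome encodes in the same complex. For complex I, the 37 nuclear subunits had a median change of 0.05, against 0.55 for the 7 mitochondrial genes, which ranged from 0.31 to 0.68; NDUFA5 alone among the nuclear subunits exceeded that median. For complex IV the median was 0.20 over the 11 common nuclear subunits and 0.42 over 3 mitochondrial genes. For ATP synthase the medians were 0.10 over 15 nuclear and 0.42 over 2 mitochondrial genes. For complex III the order was the other way, with 0.24 over 8 nuclear genes and 0.14 for the single mitochondrial gene, MT-CYB. Of the 13 mitochondrial genes tested, 2 were called higher and 0 lower, against 0.572% and 0.782% of all tested genes. They were MT-ND2 and MT-ND3, with q = 0.00791 and q = 0.0256 in the authors' deposited table. The difference between both genomes was not tested, since there is no value per sample. Changes also differed with GC content across coding genes, as given below, and the part of base content in this difference was not tested.

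Within the members, the change was lower where the transcript's GC content was higher. Over the 75 common subunits Spearman's rho was -0.57 and Pearson's r was -0.60, given as a description across genes of 1 comparison, which are not independent. Over the 8078 tested coding genes averaging 10 FPKM or more, rho was -0.49 and r was -0.47. The 25 subunits with the lowest GC content (36.4 to 45.4%) had a median change of 0.26, and 23 of them were higher in siRNA. The middle 25 had a median of 0.13, and the 25 with the highest GC content (53.7 to 69.6%) one of -0.06, with 9 higher and 16 lower. Coding genes in these GC ranges had median changes of 0.25, 0.08 and -0.11. Chromosome 19 holds 12 subunit genes, counting the low tissue forms COX6B2 and COX7A1. Their median GC content was 59.6% and their median change -0.07, with 4 higher. The 68 tested on other chromosomes, tissue and related forms included, had 47.5% and 0.11. Among those averaging 10 FPKM or more, the median change was -0.02 over 10 genes on chromosome 19, with 4 higher, and 0.12 over 66 elsewhere.

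**Figure D4:**
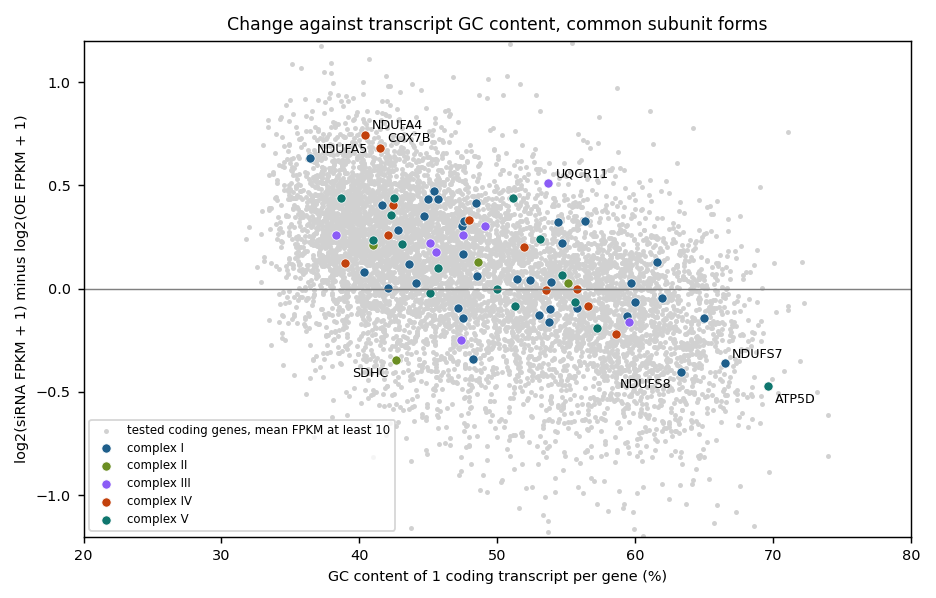
Difference of log2(FPKM + 1), siRNA minus OE, against the GC content of 1 coding transcript per gene, for 75 common subunits coloured by complex and 8078 tested coding genes in grey; 17 grey points lie outside the plotted range. Low-GC subunits such as NDUFA5 and NDUFA4 lie above 0, and ATP5D, at 69.6%, lies at -0.47.

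The start of the coding sequence shows the contrast in base content among the members that stood furthest apart. The first 90 coding bases of the coding transcript used for GC content (GENCODE 29, GRCh38) are given below for NDUFA4, COX7B and NDUFA5, with the largest upward differences, for ATP5D and NDUFS8, with the largest downward ones among common subunits, and for the COX6B pair. Within these 90 bases, G and C make up 51.1% in NDUFA4, 46.7% in COX7B and 50% in NDUFA5, but 81.1% in ATP5D and 70% in NDUFS8. COX6B1, at nearly the same level in both conditions, has 51.1% there, like NDUFA4, and COX6B2 has 64.4%. Over the whole coding sequence, G and C make up 46.9% in NDUFA4, 44.6% in COX7B and 42.5% in NDUFA5, but 68.3% in ATP5D and 63.0% in NDUFS8. The contrast does not extend to every member: UQCR11, next in upward difference, has 61.3%, and NDUFS7, next downward, 66.2%. Capitals mark TGGAG, the core of the G-rich sequence reported for CNBP binding sites.
NDUFA4: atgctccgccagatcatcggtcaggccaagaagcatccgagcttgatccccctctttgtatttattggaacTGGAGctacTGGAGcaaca
COX7B: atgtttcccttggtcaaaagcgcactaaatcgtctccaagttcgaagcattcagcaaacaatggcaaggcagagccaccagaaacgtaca
NDUFA5: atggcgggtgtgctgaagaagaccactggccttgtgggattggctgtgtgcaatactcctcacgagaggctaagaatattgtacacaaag
ATP5D: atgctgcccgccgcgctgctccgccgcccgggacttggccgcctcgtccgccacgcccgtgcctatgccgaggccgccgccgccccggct
NDUFS8: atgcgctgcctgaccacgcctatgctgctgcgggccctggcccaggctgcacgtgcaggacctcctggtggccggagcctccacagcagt
COX6B2: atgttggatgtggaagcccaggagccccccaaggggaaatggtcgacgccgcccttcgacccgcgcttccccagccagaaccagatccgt
COX6B1: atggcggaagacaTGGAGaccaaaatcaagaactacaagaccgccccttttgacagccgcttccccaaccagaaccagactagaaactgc

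On the coding strand, TGGAG lay within the first 90 coding bases in 12 of 75 common subunits, or 16.0%, against 26.7% of the 12957 tested coding genes averaging 1 FPKM or more. The 12 with it had a median change of 0.32 with 8 higher in siRNA, and the 63 without it 0.10 with 41 higher, beside 65.3% higher over all 75. Their median GC contents were 46.5% and 48.5%, and neither the difference nor the part of base content in it was tested. COX6B1, at nearly the same level in both conditions, and NDUFA4, with the largest, both carry it, NDUFA4 at 2 places. Over the whole coding sequence, which is short in most subunits, 68.0% of the members and 92.8% of the coding genes held it, with medians of 2.36 and 2.84 matches per kilobase.

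Promoters from RefSeq (GRCh38.p14, 300 bases each) were found for 62 of the 75 common subunits and were searched on both strands. CGCANGCG, the core recognized by NRF1, a factor long tied to respiratory genes, was present in 24 of the 62, or 38.7%. Of 10533 tested coding genes averaging 1 FPKM or more, the background for each motif here, 21.8% had it. The common subunits all averaged over 10 FPKM, and no background of like level was used. CCGGAA, the ETS core, was in 30, or 48.4%, against 34.2%. TATAAA was in 9.68% against 8.58%, and TGGAG in 66.1% against 69.0%. A gene with several annotated starts was counted once if any of its promoters held the letters, and a match describes letters, not a bound site. COX7B, second to NDUFA4 in upward difference among common subunits, has CCGGAA (in capitals) in a promoter of 44.0% G and C (chrX:77899218-77899517, plus strand), shown to set beside the COX6B pair.
COX7B: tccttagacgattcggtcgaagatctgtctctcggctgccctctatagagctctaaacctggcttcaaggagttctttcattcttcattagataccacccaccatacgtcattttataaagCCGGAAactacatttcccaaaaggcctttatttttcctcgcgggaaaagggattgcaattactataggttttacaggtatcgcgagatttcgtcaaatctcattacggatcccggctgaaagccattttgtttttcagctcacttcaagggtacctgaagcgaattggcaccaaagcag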

How the data were processed

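Directional RNA-seq libraries were prepared from total RNA of HEK293 cells, per the labels' protocols. TopHat, Cufflinks, Cuffdiff and the hg19 build are named in the submitters' processing notes; of versions, settings and annotation, each is not given in the sources used here. The authors deposited 1 FPKM per gene and condition, and a p-value and q-value for their 1 comparison; these were used as deposited. The OE column has no matching sample label, so no model across samples could be fitted, and the authors' p-values may measure technical spread only, since nothing says the samples were separate cultures. Members and lists were chosen with earlier results of these data known. Named members follow a fixed rule: calls, low p, and per complex the 2 highest levels and the 2 largest changes each way among those averaging 10 FPKM or more, isoform sets, untested entries, and called or the 2 most abundant genes per list; further members were named after their values were seen, to show the rest of a complex. Changes are log2(FPKM + 1), siRNA minus OE, and understate those of low genes; folds use FPKM without a pseudocount. Medians use tested genes averaging 1 FPKM or more. Locus starts were printed after adding 1, which matched 28 of 28 mitochondrial genes. A locus entry can span several genes. GENCODE 29 (GRCh38) gave 1 coding transcript per gene (APPRIS principal, then CCDS, then the longest) for 91 of 95 tested members, joined by gene ID. Coding sequences were aligned globally with Biopython 1.88. No marker check of the cell line was made. Helper functions were tested on simulated data. Tables were handled with pandas 2.3.3 and numpy 2.4.6, correlations with scipy 1.17.1 and plots with matplotlib 3.10.9, under Python 3.11.15.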

Additional observations from a re-analysis of the deposited data

How the results depend on the processing

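The count of members called lower was 1 at q thresholds of 0.01, 0.05 and 0.1, with the Benjamini-Hochberg adjustment recomputed, with a mean of at least 1 FPKM and among subunits alone; with a mean of at least 10 FPKM it was 0, because COX6B2 lies under that level. No member was called higher under any of these; at an unadjusted p under 0.05 there were 6. The median change of all members, 0.05, ranged from -0.01 (scaled by upper quartile, the only change of sign) to 0.09 (averaging 10 FPKM or more) under 8 alternatives of pseudocount, level, scaling, base content and membership. After subtracting the median change of coding genes in the same GC decile, the medians of complexes I, II, III and V were 0.093, 0.027, 0.065 and 0.037, against 0.047, 0.077, 0.24 and 0.083 as reported, each a move of over 1.5 times (the cause was not tested); only complex III moved by more than 0.1. The median of complex IV was 0.046 over its 15 tested genes, tissue and related forms included. It moved to 0.16 with a mean of at least 10 FPKM, which leaves out its low forms. At q under 0.01, calls among the mitochondrial genes were 1 higher, and among electron carriers and unmatched subunits 0 lower. The second NDUFA7 entry, listed at 0 in OE, has a change that the pseudocount sets. No paired analysis was possible because only pooled levels of each condition were at hand, which also prevented leaving out a sample. Depth per sample is unknown, so what it limits cannot be given.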
